A study of Caenorhabditis elegans with 3 samples.

Results

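The insulin receptor pathway of Caenorhabditis elegans was followed through 10 genes. They are the receptor gene daf-2, the receptor substrate gene ist-1, the phosphoinositide 3-kinase genes age-1 and aap-1, the lipid phosphatase gene daf-18, the kinase genes pdk-1, akt-1, akt-2 and sgk-1, and the transcription factor gene daf-16. They were chosen by name, and a spot was taken for a gene where the platform's annotation gave that gene alone. Of the 10 genes, 9 had such a spot, 1 each, with a value on every array, out of 15119 genes measured on all arrays; aap-1, the regulatory partner of age-1, was not analysed here. Each of the 3 two-channel arrays held RNA of late L4 and young adult hermaphrodites from 1 numbered preparation (prep 1, 2 or 3) in channel 2. Channel 1 held a mixed wild-type reference RNA, whose makeup is not given in the sources used here. The label of each staged RNA carries the code TP06, whose meaning it does not give. Beyond this code the labels name no strain, treatment or age in hours for the staged animals. The animals were whole, so fewer cells of a type and less RNA per cell cannot be told apart.

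Insulin-like peptides bind the receptor DAF-2, which activates the phosphoinositide 3-kinase AGE-1. The lipid that AGE-1 makes brings PDK-1 and the AKT kinases to the membrane, and DAF-18 removes that lipid. Active AKT kinases keep the FOXO factor DAF-16 out of the nucleus, and when the pathway is quiet DAF-16 turns on genes of stress resistance and fat use. The pathway is known for its control of dauer arrest and lifespan.

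All values are log2 ratios. A positive value was taken as a higher level in the staged RNA. This direction is likely rather than stated: it rests on the staged RNA being the second channel on each array, and with the other direction every higher and lower would turn. An effect of the channel on a spot cannot be told apart from a stage difference. The ratios carry no intensities, so spots near background could not be marked. Spots with a value numbered 19825 to 19927 per array, and Pearson's r between arrays across the 15119 genes was 0.65 to 0.68 (genes are not independent replicates). Sperm markers were higher for 21 of 24 genes (87.5%, against 11.3% of all genes), with a median of 2.69 ± 0.32 (SD, n = 3). Adult cuticle markers were higher for 6 of 8 (75%), at 1.99 ± 0.16. Of 20 oocyte and eggshell markers 3 were higher (15%), a share near the 11.3% of all genes. The array medians of these 20 markers were 1.27, -0.06 and -0.08 in the order of prep 1 to prep 3. Separate cultures are not named in the labels, so a p-value here reflects the spread among these preps alone, part of which may be technical.

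The comparison asked which pathway genes differed between the staged animals and the reference. The kinase gene akt-2 and the receptor substrate gene ist-1 were lower, and the receptor, both measured upstream lipid enzymes, the other kinases and daf-16 did not pass the test. With limma's two-sided test of the mean ratio against 0 and an adjusted p under 0.05, 2 of the 9 genes (22.2%) were called, against 20.7% of all genes tested. The members' share was thus near that of the array as a whole. Both calls were lower, where 9.37% of all genes were called lower and 11.3% higher. At an unadjusted p under 0.05 the count was also 2 lower and 0 higher. The 9 genes had an array median of 0.04 for prep 1, -0.08 for prep 2 and -0.37 for prep 3, on average -0.14 ± 0.21 (SD, n = 3), beside -0.04 ± 0.07 for all genes.

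**Figure D1:**
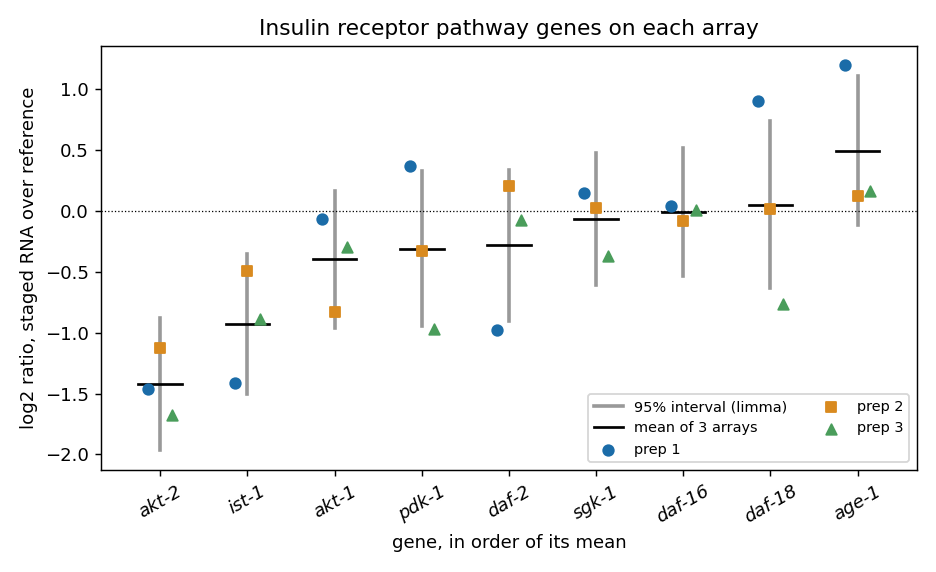
Log2 ratio (staged RNA over reference) of the 9 measured pathway genes on the arrays of prep 1, 2 and 3, ordered by mean. Black bars are means and grey bars limma's 95% intervals: akt-2 and ist-1 lie below 0 on every array, while daf-18 runs from -0.76 to 0.90 around a mean of 0.05.

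The receptor gene daf-2 stood at -0.98 in prep 1, 0.20 in prep 2 and -0.07 in prep 3. It was thus low on 1 array and near the reference on the other two. Its mean was -0.28 ± 0.62 (n = 3; limma adjusted p = 0.531), with a 95% interval from -0.90 to 0.34. Without prep 1 the mean of daf-2 was 0.07.

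The gene ist-1, whose product resembles the insulin receptor substrates that link the receptor to its kinase, stood at -1.41 in prep 1, -0.49 in prep 2 and -0.89 in prep 3. It was below the reference on all 3 arrays, most in prep 1. The mean was -0.93 ± 0.46 (n = 3), a level 1.90-fold lower (limma adjusted p = 0.0281). This call was lost under some alternatives. Without prep 1 the mean was -0.69 (limma adjusted p = 0.153), and with each array centred within supposed print blocks it was -0.67 (limma adjusted p = 0.116). The block that held the ist-1 spot had array medians of -0.05, -0.27 and -0.44 in preps 1, 2 and 3.

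The lipid enzymes act against each other, AGE-1 making the lipid signal and DAF-18 removing it. The catalytic kinase gene age-1 stood at 1.20 in prep 1, 0.12 in prep 2 and 0.17 in prep 3. It was above 0 on all 3 arrays, but far above it in prep 1 alone. Its mean of 0.50 ± 0.61 (n = 3; limma adjusted p = 0.245) was the highest of the 9 genes and had a 95% interval from -0.12 to 1.11. The phosphatase gene daf-18 stood at 0.90 in prep 1, 0.02 in prep 2 and -0.76 in prep 3. The arrays of daf-18 thus lay on both sides of the reference, with a mean of 0.05 ± 0.83 (n = 3; limma adjusted p = 0.932). Its SD was larger than that of 91.9% of all genes, and its 95% interval of -0.63 to 0.74 leaves room for a ratio of 0.64 to 1.67.

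Of the kinases that read the lipid signal, akt-2 was lower and its paralog akt-1 did not pass. The kinase gene akt-2 stood at -1.47 in prep 1, -1.13 in prep 2 and -1.68 in prep 3. All 3 arrays were well below the reference and close to each other. The mean was -1.42 ± 0.28 (n = 3), a level 2.68-fold lower with a 95% interval of -1.97 to -0.88 (limma adjusted p = 0.00203). Of the 15119 genes, 416 had a lower mean than akt-2. The call remained under each of the 15 alternatives tried, with means from -1.57 to -1.21. Not all of them could have changed it. The only akt-2 spot had a value on every array, so alternatives for repeated spots, missing values and naming left its mean unchanged. A looser threshold could not lose the call.

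The kinase gene akt-1 stood at -0.06 in prep 1, -0.83 in prep 2 and -0.30 in prep 3. It was below 0 on each array, with a mean of -0.40 ± 0.39 (n = 3; limma adjusted p = 0.314) and a 95% interval from -0.96 to 0.17. On the 3 arrays in turn, the log2 ratio of akt-1 minus that of akt-2 was 1.40, 0.30 and 1.38. The ratio of akt-2 was thus the lower one on all 3 arrays, by a mean of 1.03 ± 0.63. The exact sign-flip permutation test gave p = 0.25 (two-sided), the smallest value that this test allows with 3 arrays, so it could not pass whatever the size of the difference. The 2 genes are paralogs, and signal shared between their spots could not be measured here.

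The upstream kinase gene pdk-1, whose product activates the AKT kinases, stood at 0.37 in prep 1, -0.33 in prep 2 and -0.97 in prep 3. Its arrays fell on both sides of 0, with a mean of -0.31 ± 0.67 (n = 3; limma adjusted p = 0.503) and a 95% interval from -0.94 to 0.33. The related kinase gene sgk-1, which acts in the same pathway and downstream of the TORC2 complex, stood at 0.15 in prep 1, 0.03 in prep 2 and -0.37 in prep 3. Its mean was -0.07 ± 0.27 (n = 3; limma adjusted p = 0.888), with a 95% interval from -0.61 to 0.48. In every prep sgk-1 lay above akt-2, by 1.61, 1.16 and 1.31 in preps 1, 2 and 3 (exact sign-flip p = 0.25, the smallest possible); this pair was picked after its values were seen.

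The output gene daf-16 lay close to the reference on every array. It stood at 0.04 in prep 1, -0.08 in prep 2 and 0.01 in prep 3. The 3 arrays nearly coincided, and the SD of daf-16 was smaller than that of all but 2.05% of genes. Its mean was -0.01 ± 0.07 (n = 3; limma adjusted p = 0.986). The 95% interval of -0.53 to 0.52 corresponds to a ratio between 0.69 and 1.43. It is much wider than the SD, in part because limma draws each gene's variance towards that of the other genes. The sign of so small a mean is not settled. With arrays centred on their medians it was 0.03, and with print-block centring -0.21 (limma adjusted p = 0.494). The ratio concerns the summed transcripts that bind this spot and says nothing of where the DAF-16 protein lies in the cell.

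In order of their means the genes ran akt-2, ist-1, akt-1, pdk-1, daf-2, sgk-1, daf-16, daf-18 and age-1. Of the 8 pairs of neighbours in this order, only ist-1 over akt-2, at 0.49 ± 0.39, and age-1 over daf-18, at 0.45 ± 0.43, had a mean difference larger than its SD and of 1 sign on all arrays. Both gave an exact sign-flip p of 0.25, the smallest possible, and the remaining neighbours did not differ beyond their spread. From akt-1 to daf-18 each gene differed from the next by 0.03 to 0.22, against SDs of 0.28 to 1.21.

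**Figure D2:**
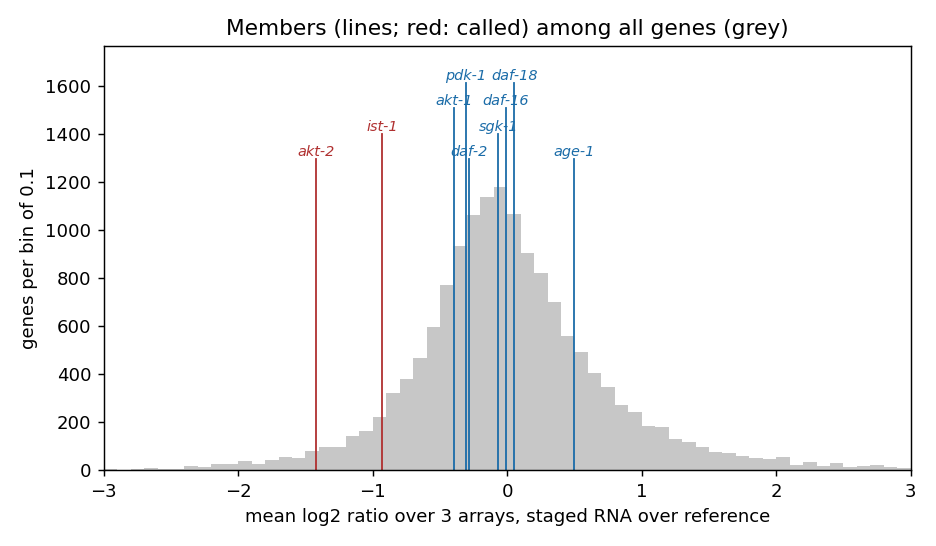
Mean log2 ratio over 3 arrays of all genes (grey, genes per bin of 0.1, axis limited to the range -3 to 3) with the 9 pathway genes as lines, red where called and blue where not. The lines of akt-2 and ist-1 stand in the lower tail, at the percentiles 2.75 and 7.11, and the other 7 genes lie between the percentiles 24.6 and 79.6.

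Of the 9 genes, 4 lie on the X chromosome, namely pdk-1, sgk-1, ist-1 and akt-2, and the 2 called genes are among them. X-linked genes as a whole stood lower on these arrays, with a median of -0.27 ± 0.12 (SD, n = 3) over 2258 genes, and 12.7% of them were called lower. Within the X-linked genes, 2.61% had a lower mean than akt-2 and 9.21% a lower mean than ist-1, while pdk-1 and sgk-1 had 45.4% and 68.9% below them. The part of the chromosome in the values of akt-2 and ist-1 was not tested.

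Several pathway genes differed between prep 1 and the mean of the other preps. This contrast sets 1 array against 2 and was not a planned comparison, so its values are descriptive. The difference of prep 1 from the mean of preps 2 and 3 was 1.28 for daf-18, 1.05 for age-1 and 1.02 for pdk-1. These 3 of the 9 genes lay above the 95th percentile of all genes for this difference, at the percentiles 98.1, 95.8 and 95.2. Only age-1 among them was high in prep 1 alone (1.20, 0.12 and 0.17). Both daf-18 (0.90, 0.02 and -0.76) and pdk-1 (0.37, -0.33 and -0.97) fell from prep 1 to prep 2 and again to prep 3. For daf-2 the difference was -1.05, at the percentile 6.66, so the receptor gene went the other way. For akt-2 and daf-16 it was -0.06 and 0.08. The oocyte and eggshell markers were also higher in prep 1, by the medians given above, while the medians of the sperm markers (2.62, 2.41 and 3.03) and of the intestine markers (1.05, 1.26 and 0.80) had no such step. Neuron markers had medians of -0.86, -0.44 and -0.65. Among the lists of related genes described below, the regulators also fell at each step from prep 1 to prep 3, with medians of 0.22, -0.04 and -0.31. So did the TOR and AMPK genes (0.37, 0.06 and -0.18) and the genes lowered by DAF-16 (0.65, 0.15 and -0.27). The ligands (-0.49, -0.61 and -0.44) and the genes raised by DAF-16 (-0.28, -0.54 and -0.42) did not. The supposed print blocks that held the spots of age-1, daf-18 and pdk-1 also differed between arrays. In preps 1, 2 and 3 the block medians were 0.45, 0.03 and -0.11 for age-1, and 0.31, -0.10 and -0.35 for pdk-1. For daf-18 they were 0.13, -0.28 and 0.06. The parts of oocyte content and of the print block in the values of age-1, daf-18 and pdk-1 were not tested.

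**Figure D3:**
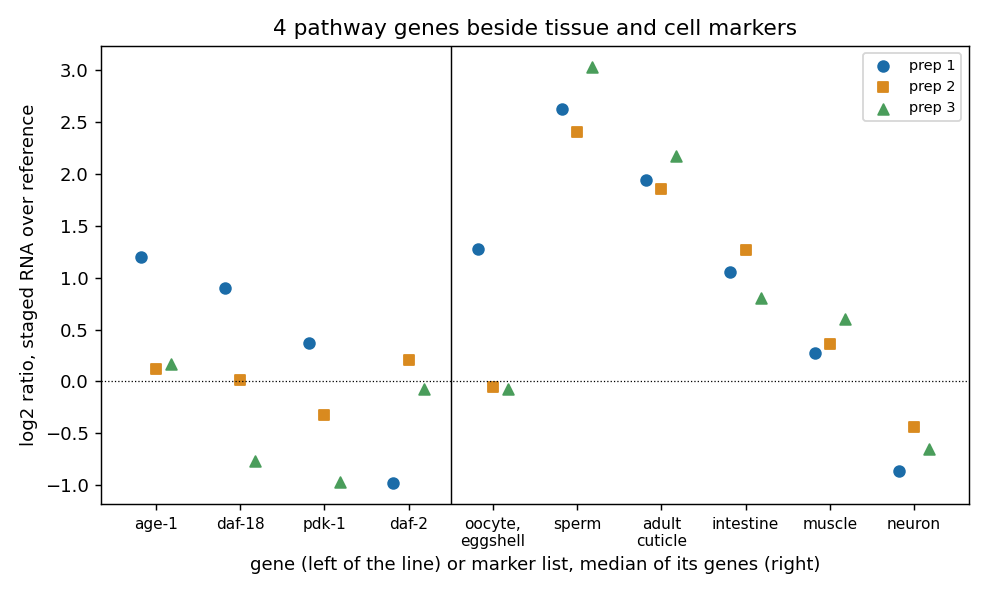
Log2 ratio on each array of age-1, daf-18, pdk-1 and daf-2 (left of the line) and the median log2 ratio of 6 lists of tissue and cell markers (right). Prep 1 is the highest array for age-1, daf-18, pdk-1 and the oocyte and eggshell markers (1.27), and the lowest for daf-2 (-0.98).

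The genes around the core pathway were described from lists. The ligands, insulin-like peptides that activate or block DAF-2, were lower or not called. Of 40 listed ligand genes 22 were measured, so the counts do not cover the whole family. Among these 22 limma called 8 lower (36.4%, against 9.37% of all genes) and 0 higher (against 11.3%), and 14 did not pass. The unadjusted counts were the same, 8 lower and 0 higher. The lowest was ins-35, at -2.88, -1.23 and -1.65 in preps 1, 2 and 3, a mean of -1.92 ± 0.86 (n = 3; limma adjusted p = 0.00148). Next came ins-33 at -1.41 ± 0.39, ins-11 at -1.14 ± 0.51 and ins-22 at -0.97 ± 0.45. The genes ins-30 and ins-3 followed at -0.92 ± 0.60 and -0.92 ± 0.23, and the highest, ins-37 at 0.44 ± 0.69 and ins-31 at 0.23 ± 0.47, did not pass. The count fell to 3 without prep 1, to 4 without prep 3 and to 5 with print-block centring. Among the lower ligand genes named here, calls were lost without prep 1 for ins-22 (-0.71), ins-30 (-0.59) and ins-3 (-0.94). Without prep 3 they were lost for ins-11 (-0.86) and ins-3 (-0.79). The remaining lost calls were of ligand genes not named here. Many insulin-like genes are known to be active in neurons. Neuron markers were lower for 8 of 22 genes (36.4%, against 9.37% of all genes) and higher for 0, with a median of -0.65 ± 0.21. At an unadjusted limma p under 0.05, 14 neuron markers were lower and 1 higher. The part of neuron content in the ligand values was not tested.

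Among 24 measured regulators, genes that act on the pathway or on DAF-16, limma called 1 higher and 4 lower, and 19 did not pass. The share called, 20.8%, was near the 20.7% of all genes. By direction, 16.7% were lower (against 9.37% of all genes) and 4.17% higher (against 11.3%). The kinase gene jnk-1, whose product phosphorylates DAF-16, was lower in each prep, at -1.09, -1.26 and -1.35, a mean of -1.24 ± 0.13 (n = 3; limma adjusted p = 0.00403). Also lower were hsd-1, a steroid dehydrogenase-like gene, at -1.01 ± 0.46, the Ste20-like kinase gene cst-1 at -0.80 ± 0.18 and the zinc finger factor gene pqm-1 at -0.74 ± 0.02. The ubiquitin ligase gene rle-1, whose product marks DAF-16 for breakdown, was higher at 0.95 ± 0.64, and the 14-3-3 gene par-5, whose product binds DAF-16, stood at 0.74 ± 0.42 and did not pass.

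The call of jnk-1 remained with each prep left out, and each of the other 4 regulator calls was lost at least once. The calls of rle-1 (0.96), cst-1 (-0.71) and pqm-1 (-0.75) were lost without prep 1. Without prep 2 those of rle-1 (0.62), cst-1 (-0.89), pqm-1 (-0.73) and hsd-1 (-0.94) were lost, which left 1 call, and without prep 3 those of cst-1 (-0.78), pqm-1 (-0.74) and hsd-1 (-0.83). Without prep 3 the regulators had 3 calls higher and 1 lower, and par-5 passed at 0.98. Of 21 listed genes of the TOR and AMPK kinase complexes, which sense nutrients beside the insulin pathway, 13 were measured. Among these 13 only 1 passed, a share of 7.69% against 20.7% of all genes. It was aakg-4, of an AMPK gamma subunit, lower at -0.86 ± 0.18 (limma adjusted p = 0.0271). That call was lost without prep 1 (-0.93), prep 2 (-0.90) or prep 3 (-0.76), and the Rictor gene rict-1, at 0.73 ± 0.78, passed without prep 3 at 1.16. In the same list aak-1 at 0.57 ± 0.08 and aakb-1 at -0.62 ± 0.14 did not pass.

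Known targets of DAF-16 included genes far below and far above the reference. Of 25 measured genes that DAF-16 is known to raise when insulin signalling is low, limma called 9 lower (36%, against 9.37% of all genes) and 0 higher, and 16 did not pass; unadjusted, 9 were lower and 2 higher. Its array medians were -0.28, -0.54 and -0.42, on average -0.42 ± 0.13, beside -0.04 ± 0.07 for all genes. The list was chosen with earlier results for several of its genes known, so its count is not independent evidence.

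The small heat shock gene hsp-12.6 stood at -4.97 in prep 1, -4.57 in prep 2 and -5.06 in prep 3. Its mean was -4.87 ± 0.26 (n = 3). The gene dod-3, named for lying downstream of DAF-16, stood at -4.97, -3.12 and -3.11, a mean of -3.73 ± 1.07. The metallothionein gene mtl-1, whose product binds metal ions, stood at -2.81, -2.63 and -3.43, a mean of -2.95 ± 0.42, or 7.74-fold lower (limma adjusted p = 2.92e-05). All 3 genes were far below the reference on every array. Next came hsp-12.3, of the same family as hsp-12.6, at -2.86 ± 0.33, the ferritin gene ftn-1 at -2.50 ± 0.36 and nnt-1, of a mitochondrial transhydrogenase, at -1.75 ± 0.39.

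Not all genes of this kind were lower. The cadmium-responsive gene cdr-2 at 0.69 ± 0.41 and the glutathione transferase gene gst-4 at 0.62 ± 0.25 were the highest and did not pass, and with print-block centring cdr-2 passed at 0.95. The superoxide dismutase gene sod-3, a common reporter of DAF-16 activity that is named here after its values were seen, stood at 0.20 in prep 1, -0.74 in prep 2 and -0.81 in prep 3. Its mean of -0.45 ± 0.56 did not pass (n = 3; limma adjusted p = 0.288). Members of the hsp-16 family are near-identical in pairs and may share signal. Many DAF-16 targets are active in the intestine. Intestine markers were higher for 6 of 10 genes (60%, against 11.3% of all genes). They were lower for 0 (0 also unadjusted), against 9.37% of all genes. Their median was 1.04 ± 0.23, and the part of intestine content in the values of the targets was not tested.

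Among 13 measured genes that DAF-16 is known to lower, limma called 3 higher (23.1%, against 11.3% of all genes) and 1 lower (7.69%, against 9.37%), and 9 did not pass. The gene dod-19 stood at 3.74, 3.56 and 3.08 in preps 1, 2 and 3, a mean of 3.46 ± 0.34 (n = 3; limma adjusted p = 1.13e-05). Also higher were dod-17 at 2.51 ± 0.77 and dod-20 at 1.09 ± 0.47, while dod-22 was lower at -1.61 ± 0.62 and dod-23 at -0.81 ± 0.58 did not pass. Without prep 3 the call of dod-20 was lost (0.83), yet the list then had 5 calls higher and 1 lower. Without prep 1 dod-23 passed at -1.12. The ligand gene ins-7, which DAF-16 is known to lower and which stands in both lists, was at 0.00 ± 0.22 and is named after its value was seen.

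**Figure D4:**
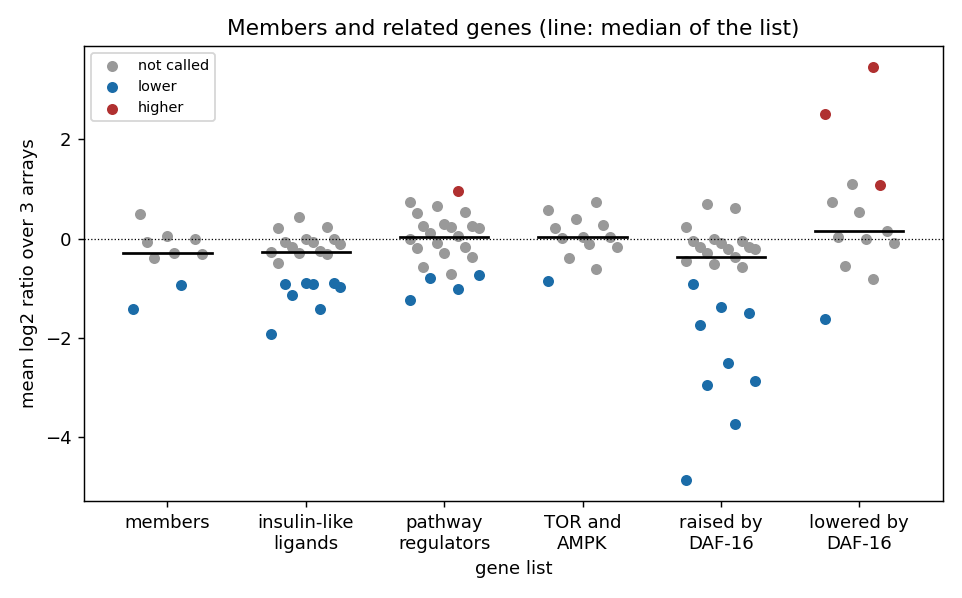
Mean log2 ratio over 3 arrays of each pathway gene and of each measured gene in 5 related lists, coloured by limma's call, with the median of each list as a line. The genes raised by DAF-16 reach down to -4.87 (hsp-12.6) and those lowered by it up to 3.46 (dod-19), while the 9 pathway genes lie between -1.42 and 0.50.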

How the data were processed

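The deposited values are log2 ratios, 1 per spot and array for 20000 spots; the sources used here do not give the background correction, normalization, dyes or direction. The log2 scale was checked on the deposited values: on each array, all ratios under 0.6 were whole multiples of 0.001, with a tolerance of 1% of that step. Gene names came from the annotation of the platform, with symbols updated through RefSeq's gene table (assembly WBcel235), which held the identifiers of 99.45% of the 15655 spots of 1 gene; another 198 spots listed several genes and 4147 listed none, and neither kind was used. Repeated spots of a gene were averaged.

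Means over the 3 arrays were tested against 0 with limma 3.58.1 in R 4.3.3 (lmFit, eBayes, two-sided) for 15119 genes, with Benjamini-Hochberg adjustment over all of them at 0.05. Each value is a ratio to the reference, so the test cannot separate any spread of the reference between arrays from that of the staged RNA. Whether the same reference RNA served all arrays was not tested. The number of arrays limits the precision. The test was tried on simulated data. Print blocks are runs of 625 probe numbers, a layout inferred rather than stated.

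The pathway genes and the lists were chosen with earlier results of these data known. All measured pathway genes are named; of each related list, up to 6 called genes in each direction, and the 2 highest or 2 lowest where fewer than 2 were called. Alternatives changed centring, scaling, variance model, array weights, repeated spots, missing values, naming and threshold, and left out each prep. Sequences were not used here.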

Additional observations from a re-analysis of the deposited data

How the results depend on the processing

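The count of called pathway genes stayed at 2 except that it was 1 (akt-2) with print-block centring and at an adjusted p under 0.01, and 1 to 2 over the fits that left out 1 prep (1 without prep 1). The number of all genes called was 1605 at a threshold of 0.01, and 1763 to 2901 with 1 prep left out. With 1 prep left out, the calls numbered 3 to 8 for the ligands, 1 to 4 for the regulators and 0 to 1 for the TOR and AMPK list. In those fits the calls numbered 7 to 9 for the genes raised by DAF-16 and 4 to 6 for those lowered by it. With print-block centring the ligands had 5 calls and the TOR and AMPK list 0 (limma; 2 at an unadjusted p under 0.05), and with median-centred arrays the regulators had 3. The sign turned for daf-2, pdk-1, daf-16, daf-18 and sgk-1, none of which passed in those fits. Of these genes, daf-2 (-0.28) and pdk-1 (-0.31) had the means furthest from 0 over all 3 arrays. With median-centred arrays daf-16 was 0.0274, and with array weights daf-18 was -0.0680. With 1 prep left out, daf-2 ranged from -0.53 to 0.0666, pdk-1 from -0.65 to 0.0237, daf-16 from -0.0351 to 0.0278, daf-18 from -0.37 to 0.46 and sgk-1 from -0.17 to 0.0869. The cause of these changes was not tested. The mean of akt-1 minus akt-2 stayed between 0.84 and 1.39. No paired analysis was possible because there is 1 group. With no intensities, the limit set by signal over background is unknown.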
